A study of Mus musculus with 6 samples.

Results

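Integrins are the cell surface receptors through which cells hold on to matrix and to each other, and laminins are the large matrix proteins to which many of them bind. The chains of both families were followed in MYC-driven mouse liver tumours. Members were the rows of the count table whose gene symbol names an integrin alpha or beta chain or a laminin alpha, beta or gamma chain, 39 of 52459 rows. They were divided into 9 leukocyte integrins, 19 other integrins and 11 laminin chains. One row, Itgb1bp2, matched the naming pattern although it encodes melusin, a cytoplasmic protein that binds integrin tails and is no chain itself. All 6 samples were flash-frozen liver tumours of 1 genotype, MYC-LAP-tTA: 3 with MYC active (MYC-On) and 3 at 4 days after its inactivation (MYC-Off Day 4). The LAP promoter, active in hepatocytes, drives the transactivator tTA, which in turn drives the MYC transgene. Separate animals are not named for the replicates, nor is the means of switching MYC off, so each p-value speaks only of the scatter among the 3 libraries per group, part of which may be technical.

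An integrin is a pair of 1 alpha and 1 beta chain, and the pair decides the ligand. Itgb2 pairs with Itgal, Itgam, Itgax or Itgad on white blood cells and binds ICAMs, complement fragments and fibrinogen. Itgb7 pairs with Itga4 or Itgae on lymphocytes, Itgb1 pairs with many alpha chains on most cells, and Itgav and its beta chains bind RGD motifs and release active TGF-beta. Laminins are trimers of 1 alpha, 1 beta and 1 gamma chain that build basement membranes under epithelium and endothelium. The sinusoids of the normal liver have little such membrane, while bile ducts and larger vessels rest on one.

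Libraries held 16292718 to 19265623 counted reads, and 1 read was worth 0.0409 to 0.0768 CPM (the usual counts relative to library size, after TMM composition scaling), the unit of every level below unless a length is named. The members took 0.0742% to 0.156% of reads. The Myc row stood at 779, 1018 and 854 CPM in MYC-On replicates 1, 2 and 3 and at 74.8, 10.2 and 18.7 CPM in MYC-Off Day 4. It may hold reads of both the mouse gene and the transgene, and how transgene reads were counted is not given. Of 14130 genes tested, 29.9% were higher and 22.8% lower in MYC-Off Day 4 at an adjusted p of 0.05, and the median log2 fold change was 0.18. With library size as the only scaling that median moved by -0.74, and the share of called genes that were higher went from 56.7% to 32.3%. The hepatocyte markers rose in 7 of 8 cases, with Alb at 1786 ± 913 and 122748 ± 73814 CPM. The MYC-Off Day 4 libraries differed widely in the markers of other cells: the summed T cell markers stood at 232, 24.6 and 5.61 CPM and the macrophage markers at 7619, 2944 and 1185 CPM in replicates 1, 2 and 3, and no read of the Kupffer cell marker Clec4f, chosen after its values were seen, was counted in replicate 3.

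Most chains of both families were more abundant with MYC off. Of the 39 rows 34 had enough reads to be tested, and of these 25 were higher (73.5%, against 29.9% of all tested genes), 2 were lower (5.88%, against 22.8%) and 7 did not pass; 52.7% of all tested genes passed in either direction. A chain that passed the read filter only through MYC-Off Day 4 had to be higher there, so these shares describe the tested chains and not the families. Leukocyte integrins had 6 of 8 tested chains higher and 0 lower, with a median log2 fold change of 2.79. Other integrins had 12 of 15 higher and 0 lower with a median of 1.97, and laminin chains had 7 of 11 higher and 2 lower with a median of 2.34. The MYC-Off Day 4 libraries lay wholly above the MYC-On libraries for 24 of the 34 chains (33.2% of all tested genes) and wholly below for 3 (29.8% of all tested genes). All chain directions below are those of TMM scaling, and no called chain changed direction under any other scaling.

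**Figure D1:**
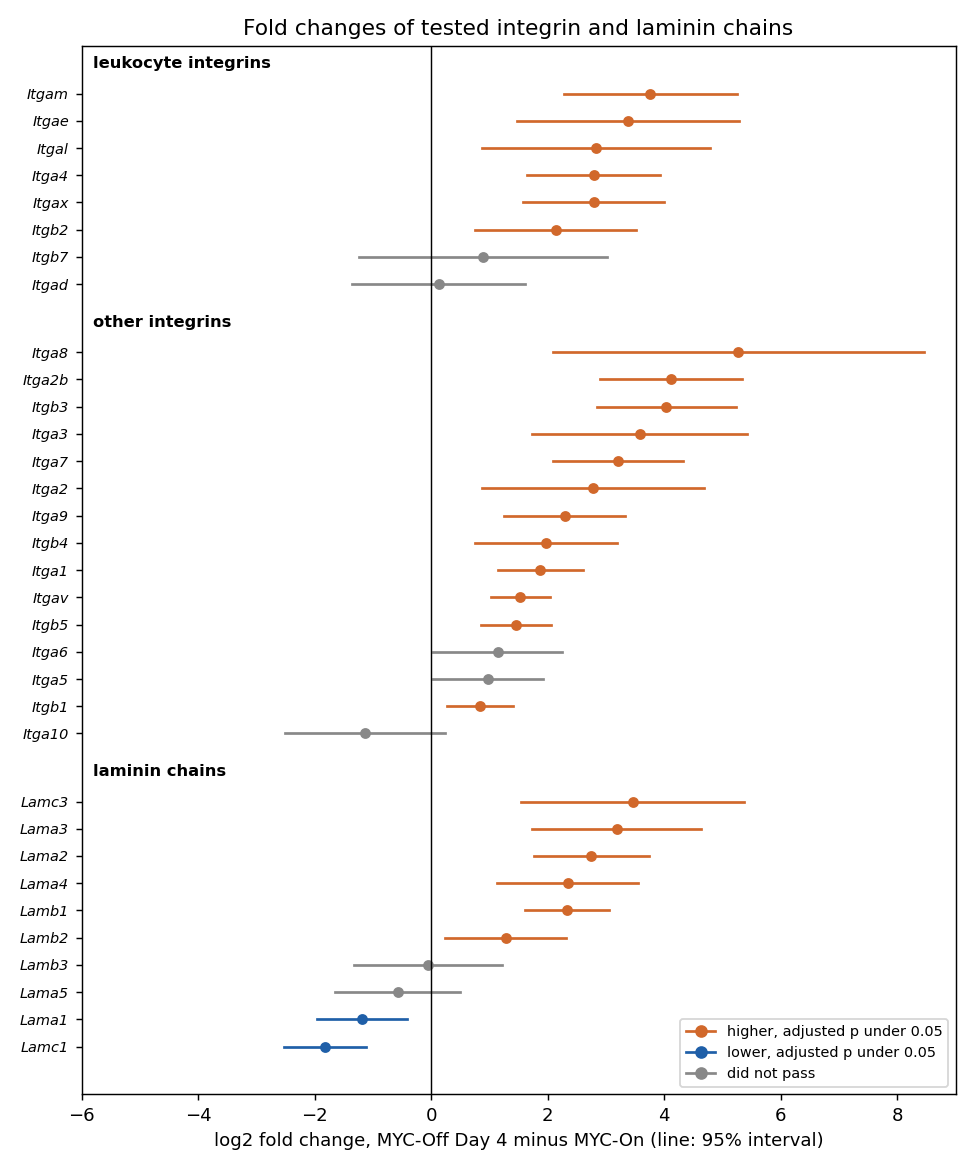
Log2 fold change (MYC-Off Day 4 minus MYC-On) of the tested chains named in the text on the x axis, with its 95% interval from edgeR as a line, ordered within leukocyte integrins, other integrins and laminin chains on the y axis. Orange chains were higher and blue chains lower at an adjusted p of 0.05, grey chains did not pass; the 2 blue chains, Lama1 and Lamc1, are both laminins.

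The start regions of 4 chains are shown as examples: 3 that were higher with MYC off and 1 that did not pass. RefSeq promoters (GRCm38.p6, 250 bases before to 50 after a start) were on hand for 24 of the 39 members, 27 promoters in all. The E-box CACGTG, the core motif that MYC and MAX bind, was found in 0 of the 27, against 7.15% of 32851 promoters of the same length. Lamc1 and Lama1, the chains called lower, had no promoter on hand and were not searched. Itgb2, Itgal, Itgad and Itgae were also missing. With 27 promoters and a share this low, 0 matches do not set the chains apart from all promoters. The motif GAGGAA, read on both strands and part of many sites of the myeloid factor PU.1, was found in 3 of 5 leukocyte integrin, 7 of 16 other integrin and 5 of 6 laminin promoters, against 28.3% of all. A match is a description of letters and not a bound site. The 250 bases before the start are printed for Itgam (chr7:128062390-128062639, plus strand) and Itgax (chr7:128129300-128129549, plus strand), neighbouring leukocyte alpha chains that both rose. Those of Itgb1 (chr8:128685404-128685653, plus strand), the integrin chain with the highest level per kilobase, and Lama5 (chr2:180225860-180226109, minus strand), a laminin chain that did not pass the test, follow. Capitals mark GAGGAA or its reverse complement. They begin 84 and 15 bases before the start in Itgam, 9 in Itgb1 and 235 in Lama5, and Itgax has none in this window.
Itgam: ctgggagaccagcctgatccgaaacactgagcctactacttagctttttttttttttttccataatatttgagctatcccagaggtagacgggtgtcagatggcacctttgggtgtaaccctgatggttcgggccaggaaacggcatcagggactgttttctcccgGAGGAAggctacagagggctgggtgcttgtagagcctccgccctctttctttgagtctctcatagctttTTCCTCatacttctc
Itgax: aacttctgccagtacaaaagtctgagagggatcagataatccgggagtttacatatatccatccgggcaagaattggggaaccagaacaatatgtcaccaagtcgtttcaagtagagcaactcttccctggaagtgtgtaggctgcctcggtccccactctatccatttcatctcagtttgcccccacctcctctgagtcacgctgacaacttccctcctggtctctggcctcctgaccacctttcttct
Itgb1: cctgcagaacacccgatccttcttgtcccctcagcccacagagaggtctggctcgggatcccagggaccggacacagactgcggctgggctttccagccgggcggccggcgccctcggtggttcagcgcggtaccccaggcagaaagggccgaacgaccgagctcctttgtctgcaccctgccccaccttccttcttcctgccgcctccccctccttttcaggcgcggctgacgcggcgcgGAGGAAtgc
Lama5: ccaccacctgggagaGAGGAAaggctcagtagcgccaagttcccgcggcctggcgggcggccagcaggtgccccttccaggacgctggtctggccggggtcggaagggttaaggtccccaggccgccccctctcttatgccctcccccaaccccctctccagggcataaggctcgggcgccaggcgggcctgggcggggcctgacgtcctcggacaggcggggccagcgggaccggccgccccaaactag

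The beta chain of the white cell integrins, Itgb2 (chromosome 10, 77530252 to 77565708, mm10), rose with MYC off. It stood at 16.7, 22.8 and 18.3 CPM in MYC-On and at 166, 55.5 and 31.7 CPM in MYC-Off Day 4, in the order of replicate numbers. The groups did not overlap, and replicate 1 of MYC-Off Day 4 stood far above the other two. The log2 fold change was 2.14 (SE 0.59, edgeR adjusted p = 0.0194). Without MYC-Off Day 4 replicate 1 the change of Itgb2 was 1.04 (edgeR adjusted p = 0.0234), and its call was lost without MYC-On replicate 1, 2 or 3 (edgeR adjusted p = 0.0719, 0.0645 and 0.0739), with a replicate block (0.0541) and with library size only (0.0824).

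Of its alpha partners 3 rose and 1 did not pass. Itgam, the alpha chain of the complement receptor of neutrophils and macrophages, went from 1.29, 0.90 and 0.444 CPM to 20.9, 7.65 and 7.60 CPM, with no overlap (log2 fold change 3.77, SE 0.63, edgeR adjusted p = 0.0033). Itgax, known as CD11c and abundant on dendritic cells and some macrophages, went from 2.23, 4.01 and 3.06 CPM to 35.7, 10.4 and 18.2 CPM, again with no overlap (2.79, SE 0.52, edgeR adjusted p = 0.00453). Without MYC-Off Day 4 replicate 1 the changes were 2.96 for Itgam and 2.06 for Itgax, and both still passed. Itgal, the alpha chain of LFA-1 with which lymphocytes grip ICAM1, stood at 5.39, 6.10 and 3.06 CPM in MYC-On and at 63.9, 35.1 and 4.61 CPM in MYC-Off Day 4. Replicate 3 lay within the MYC-On range, so the groups of Itgal overlapped although the gene passed (2.83, SE 0.84, edgeR adjusted p = 0.0251).

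The call of Itgal was the weakest of the leukocyte alpha chains. It was lost without MYC-On replicate 1, 2 or 3 (edgeR adjusted p = 0.0731, 0.0776 and 0.0937) and without MYC-Off Day 4 replicate 1 or 2 (0.0818 and 0.0527), with library size only (0.0607), with no read filter (0.0827) and in limma-voom (adjusted p = 0.109). Without MYC-Off Day 4 replicate 1 its log2 fold change was 1.89. Itgad, the remaining alpha partner, stood at 5.17, 9.29 and 9.27 CPM in MYC-On and at 15.9, 7.42 and 2.53 CPM in MYC-Off Day 4, and the groups overlapped on both sides (0.13, 95% interval -1.35 to 1.61, edgeR adjusted p = 0.875). The exons of Itgad overlap those of 4931431B13Rik, Cox6a2 and Gm39091 on the other strand and Gm17831 on its own, none of which had over 16 reads in a library.

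Among the lymphocyte chains, Itga4 and Itgae rose and Itgb7 did not pass. Itga4, which brings lymphocytes and monocytes to VCAM1, went from 5.52, 4.05 and 2.02 CPM to 38.4, 16.1 and 26.0 CPM (log2 fold change 2.79, SE 0.49, edgeR adjusted p = 0.00372). Exons of Itga4 overlap those of Cerkl on the other strand. Cerkl had 26, 46 and 33 reads in MYC-On and 15, 37 and 109 in MYC-Off Day 4. Itga4 had 124, 99 and 41 and then 698, 210 and 338. Itgae, which holds resident T cells and some dendritic cells to E-cadherin, went from 0.401, 0.491 and 0.197 CPM to 7.86, 2.37 and 1.31 CPM (3.38, SE 0.81, edgeR adjusted p = 0.0118). Neither chain overlapped between the groups. Their shared partner Itgb7 stood at 4.94, 7.49 and 7.64 CPM in MYC-On and at 30.3, 5.05 and 1.77 CPM in MYC-Off Day 4, high only in replicate 1 (0.89, 95% interval -1.24 to 3.02, edgeR adjusted p = 0.436). Without that library Itgb7 stood at -1.12 (edgeR adjusted p = 0.111). The call of Itgae was lost without MYC-On replicate 1 or 3 (edgeR adjusted p = 0.0511 and 0.0577), and its change was 2.17 without MYC-Off Day 4 replicate 1. Itgb2l, a neutrophil relative of Itgb2, had 1 read over MYC-On and 10 over MYC-Off Day 4 and was not tested. Of the leukocyte integrins 3 were called higher without MYC-On replicate 1 and 3 without MYC-On replicate 3.

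**Figure D2:**
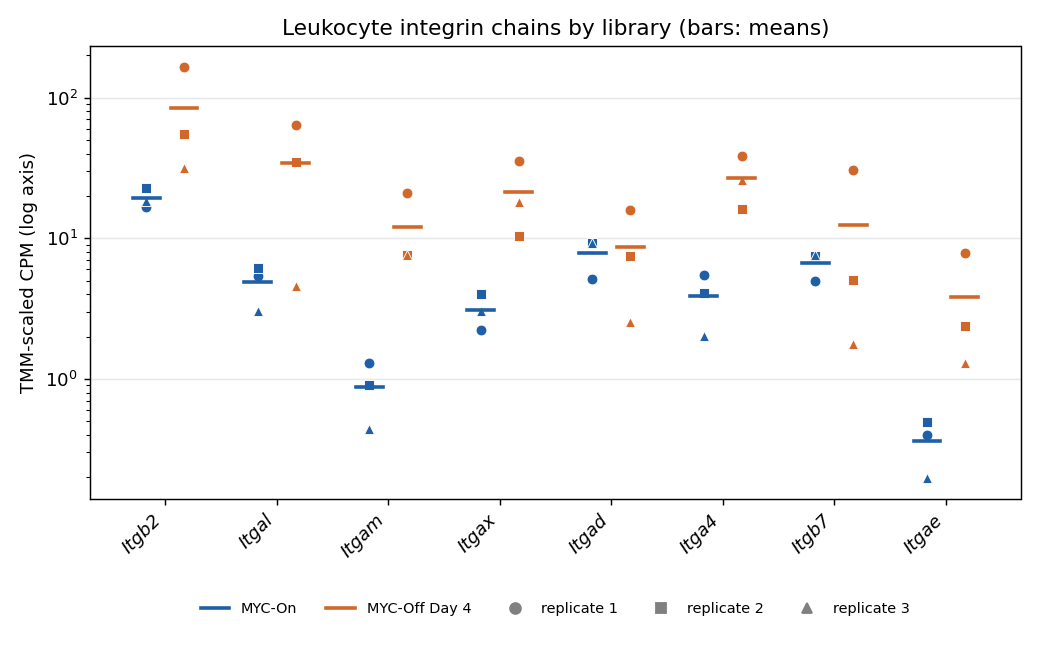
Level of the 8 tested leukocyte integrin chains in each library as TMM-scaled CPM on a log axis, MYC-On in blue and MYC-Off Day 4 in orange, with marker shape giving the replicate number and bars the group means. Replicate 1 of MYC-Off Day 4 is the highest library for every chain shown, and in Itgal, Itgad and Itgb7 replicate 3 lies at or below MYC-On levels.

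White cell markers were higher in the same libraries. All 6 pan-leukocyte markers were higher in MYC-Off Day 4, led by the lysosomal protein Laptm5 (74.6 ± 18.7 to 361 ± 299 CPM), and their summed level was 111 to 144 CPM in MYC-On and 1644, 411 and 296 CPM in MYC-Off Day 4. The summed leukocyte integrins were 41.6 to 55.2 CPM and then 379, 140 and 94.2 CPM, in the same order of libraries, although Itga4 and Itgax on their own were higher in replicate 3 than in replicate 2. In tissue RNA, more cells of a type and more RNA per cell cannot be told apart. Among lists for single cell types, 8 of 10 macrophage, 9 of 9 tested neutrophil, 5 of 5 tested dendritic, 6 of 7 tested T cell, 1 of 5 tested NK and 2 of 3 tested B cell markers rose. Of all tested genes 29.9% were higher. A marker that passed the read filter only through MYC-Off Day 4 had to be higher there, so these counts describe the tested markers alone. The most abundant of each were the neutrophil S100a9 (0.884 ± 0.377 to 69.9 ± 21.5 CPM) and the dendritic cell Zbtb46 (1.08 ± 0.226 to 7.27 ± 3.03 CPM), which rose. The most abundant macrophage marker, Cd5l (280.1 ± 89.9 and 1269 ± 1327 CPM), T cell marker, Lck (2.43 ± 0.445 and 16.4 ± 23.2 CPM), NK marker, Gzma (1.11 ± 0.300 and 10.2 ± 13.9 CPM), and B lineage marker, Jchain (1.496 ± 0.969 and 49.9 ± 75.3 CPM), did not pass. Summed neutrophil markers were 2.54 to 3.65 CPM in MYC-On and 155 to 262 CPM in MYC-Off Day 4, highest in replicate 3. The summed T cell, macrophage, dendritic, NK and B cell markers were each highest in replicate 1, as all 8 tested leukocyte integrins were. The summed endothelial markers and the summed stellate and fibroblast markers were highest in replicate 1 too, so this trait is not particular to white cells. The part of these cells in the integrin values was not tested.

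Set against Ptprc, the pan-leukocyte phosphatase CD45, the chains divided. Per read of Ptprc there were 0.961, 1.48 and 1.06 reads of Itgb2 in MYC-On and 0.727, 0.915 and 1.10 in MYC-Off Day 4, which overlapped. Itgad gave 0.298, 0.602 and 0.537 reads per Ptprc read in MYC-On and 0.0696, 0.122 and 0.0875 in MYC-Off Day 4, and Itgb7 gave 0.285, 0.485 and 0.443 and then 0.133, 0.0833 and 0.0610. Both were lower in every MYC-Off Day 4 library. Itgam went the other way, from 0.0746, 0.0584 and 0.0257 to 0.0912, 0.126 and 0.263, and so did Itgae, from 0.0231, 0.0318 and 0.0114 to 0.0343, 0.0391 and 0.0451. Of the 10 ratios computed these 4 had an exact two-sided permutation p of 0.1, the smallest that 3 against 3 libraries allow, and 0.25 after adjustment over the 10. All leukocyte integrins together gave 0.359 ± 0.0359 reads per pan-leukocyte marker read in MYC-On and 0.296 ± 0.0578 in MYC-Off Day 4 (exact permutation p = 0.3).

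Per kilobase of exon, the alpha chains that share Itgb2 stood in different proportions. Itgad made up 42.6%, 51.5% and 63.3% of their summed level in MYC-On and 14.2%, 15.4% and 8.56% in MYC-Off Day 4, with no overlap. Itgam made up 9.57%, 4.48% and 2.72% and then 16.7%, 14.3% and 23.0%, also with no overlap. Itgal made up 10.7% in MYC-Off Day 4 replicate 3 against 39.1% and 49.998% in replicates 1 and 2, and there Itgax made up 57.7%. Itgb2 stood at 1.91 ± 0.101 times the summed level of these 4 partners in MYC-On and at 1.83 ± 0.324 times in MYC-Off Day 4, so the balance of beta to alpha transcripts differed by less than the spread between libraries.

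Of 18 tested genes that switch white cell integrins on, 13 were higher (against 29.9% of all tested genes), 0 were lower and 5 did not pass, with a median log2 fold change of 1.97. Those that rose included Cyth1, which binds the Itgb2 tail (11.004 ± 1.86 to 39.0 ± 7.33 CPM), and the adaptor Skap2 (13.4 ± 2.15 to 57.1 ± 27.8 CPM). The 5 that did not pass were Ptk2b, Rassf5, Parvg and the Rap1 GTPases Rap1a (48.4 ± 12.6 and 64.7 ± 22.0 CPM) and Rap1b (145 ± 41.0 and 244 ± 179 CPM), named after their values were seen. Of 13 tested ligands of leukocyte integrins 9 were higher (against the same 29.9%) and 0 lower, with a median of 3.02. The 2 with the smallest p were the fibrinogen chains Fgb (870 ± 243 to 10876 ± 3287 CPM) and Fgg (620 ± 180 to 6490 ± 1666 CPM), which are secreted by hepatocytes and bind the Itgam receptor. Among counter-receptors on other cells, Icam2 (log2 fold change 2.75, edgeR adjusted p = 0.00936), Jam2 (3.47, 0.00699), Jam3 (3.02, 0.00565) and F11r (1.83, 0.00399) rose. Icam1 (42.2 ± 8.74 and 61.2 ± 24.7 CPM) and Vcam1 (193 ± 9.61 and 326 ± 170 CPM) did not pass, nor did E-cadherin, Cdh1 (486 ± 20.4 and 284 ± 152 CPM), the ligand of the Itgae pair. These counter-receptors and Cdh1 were named after their values were seen.

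Among the remaining integrins, the beta chains Itgb1 and Itgb5 had the highest levels per kilobase of exon. Itgb1 (chromosome 8, 128685654 to 128733200), the partner of most alpha chains, stood at 203, 195 and 181 CPM in MYC-On and at 362, 314 and 354 CPM in MYC-Off Day 4, with no overlap and the smallest rise of any called chain (log2 fold change 0.83, SE 0.24, edgeR adjusted p = 0.0232). Its size depended on scaling: it was 0.11 with library size only (edgeR adjusted p = 0.757) and 0.46 without the 20 most abundant genes (0.197). Left out in turn, the libraries moved the log2 fold change of Itgb1 only between 0.65 and 0.82, but its call was lost without MYC-On replicate 1, 2 or 3 (edgeR adjusted p = 0.116, 0.0921 and 0.122) and without MYC-Off Day 4 replicate 3 (0.0577). It was also lost with no read filter (0.079) and with a replicate block (0.0864). Itgb5, a partner of Itgav in binding vitronectin, went from 59.1, 74.4 and 68.7 CPM to 236, 153 and 165 CPM (1.45, SE 0.25, edgeR adjusted p = 0.00367), a call lost only with library size (0.78, edgeR adjusted p = 0.0972). Per kilobase, Itgb1 made up 62.9% ± 3.93 of all integrin beta chains in MYC-On and 50.9% ± 10.1 in MYC-Off Day 4, and Itgb5 25.2% ± 2.29 and 30.5% ± 1.00.

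Of the chains of RGD receptors, Itgav, Itgb3 and Itga2b rose. Itga5 and Itga8, also chains of such receptors, are given below: Itga5 did not pass, and Itga8 passed with overlapping groups. Itgav, the alpha chain of the vitronectin receptors, went from 18.4, 13.9 and 17.8 CPM to 50.5, 49.4 and 44.5 CPM, with the smallest SE of any called chain (log2 fold change 1.53, SE 0.22, edgeR adjusted p = 0.00179). Itgb3, which pairs with Itgav or with Itga2b, went from 0.312, 0.90 and 0.838 CPM to 12.9, 11.9 and 9.29 CPM (4.04, SE 0.51, edgeR adjusted p = 0.00131). Itga2b, found on platelets and megakaryocytes as the fibrinogen receptor, rose from a range of 0.345 to 0.614 CPM to one of 5.45 to 11.9 CPM (4.12, SE 0.52, edgeR adjusted p = 0.00131). All 6 tested platelet markers rose too (against 29.9% of all tested genes), led by Ppbp (0.150 ± 0.143 to 22.4 ± 13.1 CPM). A marker that passed the read filter only through MYC-Off Day 4 had to be higher there, so this count is no separate evidence. The summed level of the platelet markers was 0.493 to 0.846 CPM in MYC-On and 35.1 to 64.4 CPM in MYC-Off Day 4. Gp6 and Treml1, defining platelet genes, had 0 reads in MYC-On. The part of platelets in Itga2b and Itgb3 was not tested.

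The fibronectin receptor chain Itga5 stood at 57.5, 51.7 and 48.7 CPM in MYC-On and at 67.1, 67.2 and 176 CPM in MYC-Off Day 4. The groups did not overlap and replicate 3 was far the highest, and Itga5 did not pass (log2 fold change 0.97, 95% interval 0.03 to 1.92, edgeR adjusted p = 0.0771), and its value was 0.26 without MYC-Off Day 4 replicate 3 (edgeR adjusted p = 0.327) and 0.18 with library size only (0.695). Without MYC-Off Day 4 replicate 2 it passed (1.10, edgeR adjusted p = 0.0488). Itga8, which binds nephronectin and in liver marks stellate cells, stood at 0.802, 0.286 and 0.690 CPM in MYC-On and at 40.4, 28.1 and 0.461 CPM in MYC-Off Day 4. It had the highest fitted fold change of any chain (5.27, SE 1.36, edgeR adjusted p = 0.0153), but replicate 3 lay at the MYC-On level, and without replicate 1 of MYC-Off Day 4 the change was 4.44. The call of Itga8 was lost without MYC-On replicate 1, 2 or 3 (edgeR adjusted p = 0.0502, 0.071 and 0.0604), with no read filter (0.0767), with a replicate block (0.0858) and in limma-voom (adjusted p = 0.151). Stellate and fibroblast markers, chosen after their values were seen, differed in the same 3 libraries: Lrat was at 42.7, 42.3 and 0.614 CPM, Pdgfrb at 138, 55.9 and 33.2 CPM and Col1a1 at 193, 117 and 429 CPM.

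Itga9, a receptor for tenascin and osteopontin, went from 7.57, 11.3 and 8.09 CPM to 66.2, 45.8 and 20.5 CPM with no overlap (log2 fold change 2.30, SE 0.44, edgeR adjusted p = 0.00525). Of the collagen receptors, Itga1, found on sinusoidal endothelium and stellate cells, went from 20.4, 13.9 and 12.6 CPM to 61.8, 70.5 and 39.6 CPM (1.87, SE 0.31, edgeR adjusted p = 0.00314). Itga2 rose from 0.592 ± 0.392 to 4.12 ± 2.79 CPM (2.78, edgeR adjusted p = 0.024). Its call was lost without MYC-On replicate 1, 2 or 3 (edgeR adjusted p = 0.0592, 0.0808 and 0.0733), without MYC-Off Day 4 replicate 1 (0.0619, at 1.99) and with library size only (0.0702). Itga10, a cartilage collagen receptor, stood at 0.904 ± 0.112 and 0.399 ± 0.253 CPM and was the single tested integrin with a negative fold change (-1.13, edgeR adjusted p = 0.139); without MYC-Off Day 4 replicate 1 it passed as lower (-1.87, edgeR adjusted p = 0.0452).

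Of the laminin receptor chains Itga3, Itga6, Itga7 and Itgb4, all but Itga6 rose. Itga3, an epithelial laminin receptor, went from 3.30, 0.859 and 2.71 CPM to 18.2, 9.57 and 54.4 CPM, highest in replicate 3 (log2 fold change 3.58, SE 0.79, edgeR adjusted p = 0.00843). Without MYC-Off Day 4 replicate 3 the change of Itga3 was 2.54 (edgeR adjusted p = 0.016). Itga7, the muscle laminin receptor, rose from 0.561 ± 0.0840 to 5.26 ± 1.81 CPM (3.21, edgeR adjusted p = 0.0021). Exons of Itga7 overlap those of Mettl7b on the other strand, which had 965, 10667 and 92 reads in MYC-Off Day 4 against 74, 96 and 57 of Itga7. Itgb4, which anchors epithelium through hemidesmosomes, rose from 0.911 ± 0.211 to 3.60 ± 1.80 CPM (1.97, edgeR adjusted p = 0.0166), a call lost without MYC-On replicate 1, 2 or 3 (edgeR adjusted p = 0.0842, 0.055 and 0.0833), with a replicate block (0.0567) and with library size only (1.18, edgeR adjusted p = 0.0995). Its partner Itga6 stood at 8.46 ± 2.48 and 18.6 ± 9.54 CPM and did not pass (1.14, 95% interval 0.03 to 2.25, edgeR adjusted p = 0.0784), except without MYC-Off Day 4 replicate 2 (1.44, edgeR adjusted p = 0.0173).

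Rows too sparse to test were Itga11, a fibroblast collagen receptor, with 6 reads over MYC-On and 46 over MYC-Off Day 4, and the TGF-beta activating chains Itgb6, with 10 and 43 reads, and Itgb8, with 6 and 126. Of the 43 MYC-Off Day 4 reads of Itgb6, 40 came from replicate 1. Itgb1bp2 had 29 and 1 reads and was the row called lower among the other integrins when no read filter was set.

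**Figure D3:**
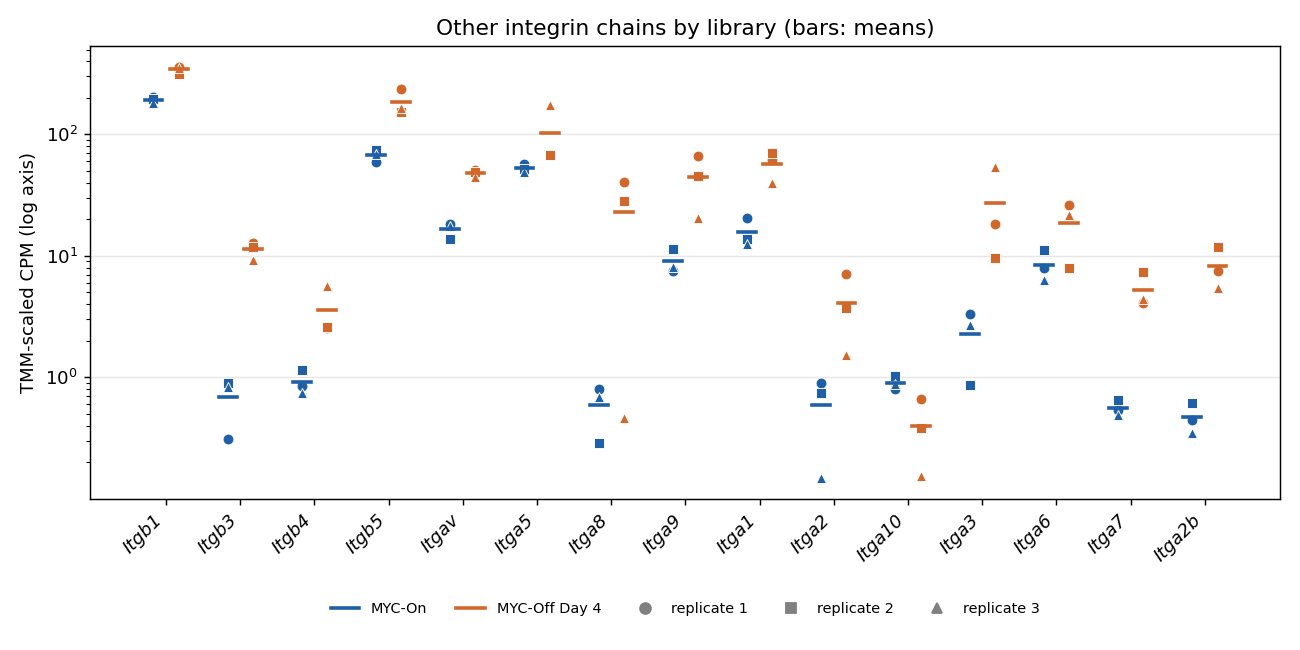
Level of the 15 tested integrin chains outside the leukocyte group in each library as TMM-scaled CPM on a log axis, MYC-On in blue, MYC-Off Day 4 in orange, marker shape for the replicate number and bars for group means. Itgb1, Itgb3, Itgb5 and Itgav separate between the groups, whereas Itga8 in MYC-Off Day 4 replicate 3 sits at 0.461 CPM beside the MYC-On libraries.

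Markers of vessels and stroma were higher in the same libraries. Of 9 tested endothelial markers 8 rose (against 29.9% of all tested genes), led by Cdh5 (17.8 ± 0.271 to 136 ± 51.3 CPM). Their summed levels were 60.4 to 69.9 CPM in MYC-On and 335 to 720 CPM in MYC-Off Day 4. Of 9 tested stellate and fibroblast markers 8 rose (against the same 29.9%), led by the collagen Col3a1 (53.1 ± 17.03 to 445 ± 227 CPM). Their summed levels were 116 to 135 CPM and then 2239, 1248 and 790 CPM. The read filter limits these counts as it does those of the white cell markers. Biliary markers were mixed, with 2 of 6 higher and 1 lower (against 29.9% and 22.8% of all tested genes). The most abundant in its higher group was Tspan8 (0.277 ± 0.174 to 45.04 ± 60.3 CPM). Of the 3 tested mesothelial markers 0 passed, the most abundant being Msln (1.11 ± 1.81 and 9.82 ± 11.4 CPM), and their list had 0 reads in MYC-Off Day 4 replicate 3. The part of any of these cells in the integrin or laminin values was not tested.

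**Figure D4:**
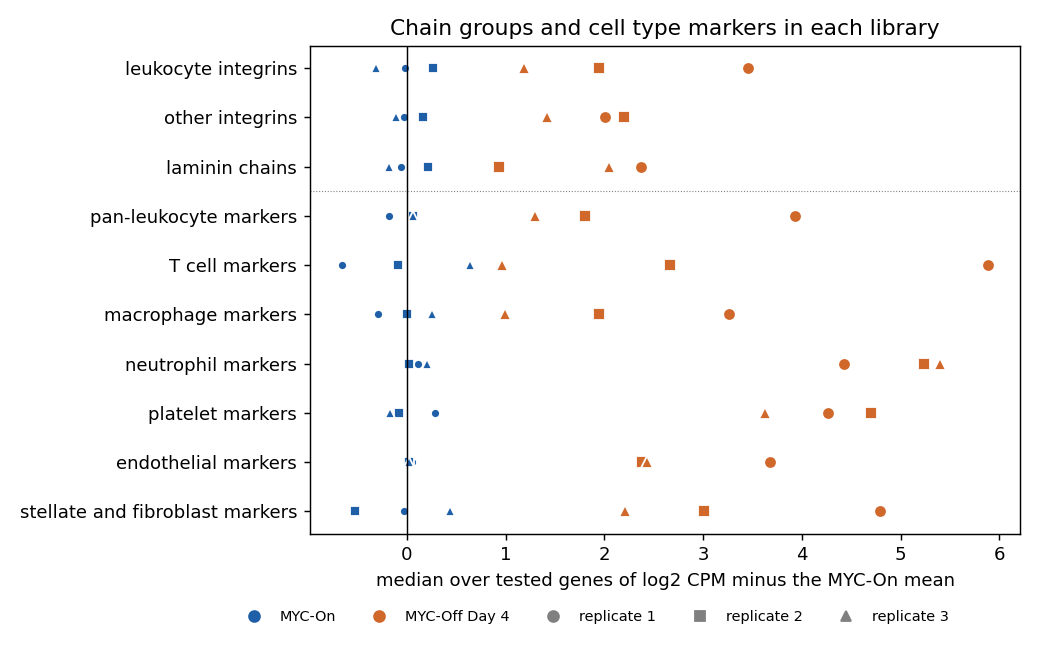
Median over the tested genes of each chain group and marker list of the log2 CPM minus its MYC-On mean (x axis), 1 point per library, MYC-On in blue, MYC-Off Day 4 in orange, shapes for replicate numbers. Leukocyte integrins (3.45, 1.94 and 1.19) order the MYC-Off Day 4 libraries as pan-leukocyte markers do (3.93, 1.80 and 1.30). Stellate and fibroblast markers (4.79, 3.01 and 2.21) give the same order, so it is not particular to white cells, and neutrophil markers (4.43, 5.23 and 5.39) give the reverse. Other integrins (2.01, 2.20 and 1.42) and laminin chains (2.37, 0.94 and 2.05) order the libraries differently.

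Inside the cell, adaptors link integrins to actin. Of 28 tested adhesome genes 10 were higher, a share near the 29.9% of all tested genes, 1 was lower and 17 did not pass, with a median log2 fold change of 0.56. Lims2, a PINCH adaptor of the ILK, PINCH and parvin complex, rose from 1.15 ± 0.554 to 55.2 ± 24.6 CPM and Parvb, a parvin, from 5.81 ± 0.783 to 41.4 ± 17.6 CPM. The row of their partner Ilk held 13 reads over MYC-On and 11 over MYC-Off Day 4 and was not tested. Tln2, one of the talins that bind integrin tails, fell from 43.0 ± 7.82 to 10.2 ± 1.03 CPM (-2.07, SE 0.24, edgeR adjusted p = 0.00105), while Tln1, the form found in most cells and set beside it here, stood at 129 ± 33.7 and 191 ± 34.9 CPM and did not pass. Of 14 tested matrix ligands 12 were higher (against 29.9%) and 0 lower, with a median of 2.80, with the smallest p for the endothelial and platelet protein Vwf (0.329 ± 0.104 to 16.8 ± 3.05 CPM) and the microfibril protein Fbn1 (3.57 ± 0.729 to 25.2 ± 3.54 CPM).

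The laminin chains split by identity. Lamc1 (chromosome 1, 153218922 to 153332786), the gamma chain of most laminins, stood at 298, 293 and 209 CPM in MYC-On and at 76.4, 55.1 and 95.1 CPM in MYC-Off Day 4. The groups did not overlap, and Lamc1 fell 3.53-fold (log2 fold change -1.82, SE 0.30, edgeR adjusted p = 0.00299), a call kept in all 15 alternative fits run on it. Lama1, the alpha chain of early embryonic basement membranes, went from 11.2, 12.8 and 9.91 CPM to 4.45, 6.43 and 4.07 CPM (-1.18, SE 0.33, edgeR adjusted p = 0.0202). The call of Lama1 was lost without MYC-On replicate 1 or 2 (edgeR adjusted p = 0.0684 and 0.0704), and Lamc1 was then the 1 laminin chain called lower. Lama5, the chief alpha chain of adult epithelial and vascular basement membranes, stood at 33.3, 71.5 and 30.9 CPM in MYC-On and at 23.6, 19.8 and 48.0 CPM in MYC-Off Day 4 and overlapped (-0.57, 95% interval -1.64 to 0.50, edgeR adjusted p = 0.323). With library size only, Lama5 passed as lower (-1.36, edgeR adjusted p = 0.0372).

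The other alpha chains rose from low levels. Lama2, the muscle and stromal alpha chain, went from 1.56, 1.64 and 1.78 CPM to 12.5, 14.4 and 6.61 CPM (log2 fold change 2.75, SE 0.42, edgeR adjusted p = 0.00233). Lama3, the chain of epithelial anchoring laminin, went from 0.668, 0.778 and 0.542 CPM to 3.96, 11.02 and 3.30 CPM, highest in replicate 2 (3.18, SE 0.62, edgeR adjusted p = 0.00528). Lama4, the endothelial and mesenchymal alpha chain, went from 3.43, 5.36 and 4.09 CPM to 26.8, 8.19 and 30.5 CPM, lowest in replicate 2 (2.34, SE 0.52, edgeR adjusted p = 0.00856). None of the 3 overlapped between the groups, and without MYC-Off Day 4 replicate 2 the change of Lama3 was 2.38 (edgeR adjusted p = 0.0117).

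Of the beta chains, Lamb1, the form paired with most alpha chains during development, went from 5.30, 7.20 and 4.34 CPM to 28.9, 22.8 and 33.6 CPM (log2 fold change 2.34, SE 0.31, edgeR adjusted p = 0.00148). Lamb2, found at synapses, in the kidney filter and in vessel walls, went from 15.7, 19.7 and 14.1 CPM to 31.9, 20.2 and 68.1 CPM, with replicate 2 just above the MYC-On libraries (1.28, SE 0.44, edgeR adjusted p = 0.0443). That call was fragile: 11 of 15 alternative fits lost it, among them DESeq2 (adjusted p = 0.0632), DESeq2 size factors (edgeR adjusted p = 0.054), library size only (log2 fold change 0.50, edgeR adjusted p = 0.354) and the fit without MYC-Off Day 4 replicate 3 (log2 fold change 0.59, edgeR adjusted p = 0.167). Lamb2 was also lost without MYC-Off Day 4 replicate 1 (0.0618) and without MYC-On replicate 1, 2 or 3 (0.133, 0.0964 and 0.147). Lamb3, the beta chain of epithelial anchoring laminin, stood at 5.17, 3.27 and 12.03 CPM in MYC-On and at 5.93, 4.90 and 8.83 CPM in MYC-Off Day 4 (-0.06, 95% interval -1.33 to 1.21, edgeR adjusted p = 0.937).

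Lamc3, a minor gamma chain, rose where Lamc1 fell. It went from 0.267, 0.0409 and 0.395 CPM to 3.24, 1.15 and 3.38 CPM (log2 fold change 3.46, SE 0.81, edgeR adjusted p = 0.0109). The groups did not overlap, but Lamc3 had 15 reads over the whole MYC-On group, and its call was lost without MYC-On replicate 1 (edgeR adjusted p = 0.0515).

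**Figure D5:**
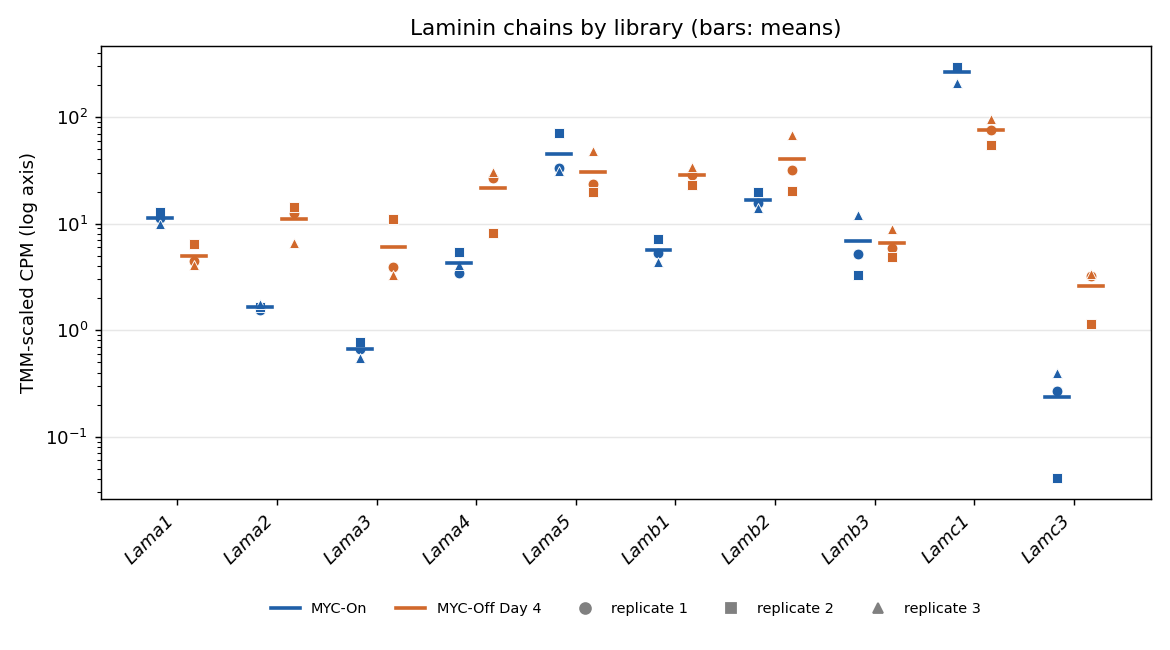
Level of the laminin chains named in the text in each library as TMM-scaled CPM on a log axis, MYC-On in blue, MYC-Off Day 4 in orange, marker shape for the replicate number and bars for group means. Lama1 and Lamc1 lie lower in all 3 MYC-Off Day 4 libraries, Lama5 and Lamb3 overlap, and the other chains shown lie higher.

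Per kilobase of exon, which allows chains to be set side by side, the make-up of the laminin transcripts differed between the groups. Lama5 made up 64.6%, 76.4% and 64.0% of alpha chain transcripts in MYC-On and 35.2%, 34.9% and 53.5% in MYC-Off Day 4, and Lama1 25.6%, 16.1% and 24.2% and then 7.82%, 13.3% and 5.34%. Lama4 made up 6.28%, 5.41% and 8.01% and then 37.7%, 13.6% and 32.1%. None of these shares overlapped between the groups. The alpha chains summed to 5.66 ± 2.22 CPM per kb in MYC-On and 6.25 ± 1.48 in MYC-Off Day 4, which differed by less than the spread between libraries, while the beta chains summed to 4.31 ± 0.362 and 10.5 ± 4.93 and the gamma chains to 32.3 ± 6.02 and 9.88 ± 2.65 CPM per kb.

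The excess of gamma over the other transcripts was smaller in every MYC-Off Day 4 library, as a description with no test. Gamma chains stood at 7.99, 4.32 and 5.997 times the alpha chains per kilobase in MYC-On and at 1.77, 1.41 and 1.55 times in MYC-Off Day 4. Against the beta chains they stood at 9.26, 7.95 and 5.55 times and then at 1.15, 1.10 and 0.768 times. Lamc1 alone made up 99.8% ± 0.131 of gamma transcripts with MYC on and 92.6% ± 3.26 with MYC off. These ratios use gene models of GENCODE release M21 and are transcript, not protein, ratios.

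The partners of laminin in the basement membrane were mixed. Of 17 tested genes 7 were higher and 1 lower (against 29.9% and 22.8% of all tested genes), with a median log2 fold change of 0.98. The laminin-binding Ntn4 rose from 4.09 ± 0.408 to 22.3 ± 3.65 CPM and the syndecan Sdc2 from 21.4 ± 5.95 to 282 ± 122 CPM. Rpsa, the ribosomal protein also described as a laminin receptor and a gene with many processed copies, fell from 10.1 ± 3.43 to 3.76 ± 1.56 CPM (edgeR adjusted p = 0.0338). Its row held only 27 to 285 reads per library. How reads matching several copies were counted is not given, so neither level nor fall need be that of the gene. Chosen after their values were seen as the main network partners, the collagens Col4a1 (413 ± 69.3 and 474 ± 296 CPM) and Col4a2 (189 ± 32.2 and 318 ± 194 CPM) and perlecan, Hspg2 (146 ± 56.3 and 149 ± 90.9 CPM), did not pass.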

How the data were processed

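RNA of 6 liver tumours was sequenced, and the authors deposited raw read counts, whole numbers by gene symbol. Tools named in the submitters' processing notes are STAR, featureCounts, Trimmomatic, Picard and DESeq2, and the build is mm10. The sources used here give no versions, annotation, strand setting or handling of multiply matching reads, so reads of genes overlapping on opposite strands cannot be told apart (12 of the 39 members overlap another gene's exons). The table's 26 date-like symbols include no member.

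MYC-Off Day 4 was compared with MYC-On over the whole table with the robust quasi-likelihood test of edgeR 4.0.16 under R 4.3.3, after TMM scaling and filterByExpr at a count of 10 and a total of 15, with Benjamini-Hochberg adjustment over all tested genes and a threshold of 0.05. SEs came from the fold change and F statistic, and values are means ± SD over 3 libraries (n = 3). Levels per kb used exon unions of GENCODE M21 (mm10). Log2 medians by library used a prior count of 2. DESeq2 1.42.0 and limma 3.58.1 were alternatives. On simulated counts the test recovered 1 of 50 genes changed 2-fold, 20 of 50 changed 4-fold, 39 of 50 changed 8-fold and 47 of 50 changed 16-fold, with 8 false calls among 13898 genes. Only these genes were changed in the simulation, whereas 52.7% of tested genes passed in the data. The adjustment is stricter when few genes change, so these shares do not give the recovery in the data.

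Members and lists were chosen with earlier results of these data known. Chains given library by library were the tested leukocyte integrins, the laminins (1 chain is counted but not reported here) and other called chains whose higher group averaged 10 CPM or more, with Itga5 added after its values were seen. Of each pathway list the 2 passing genes with the smallest adjusted p in each direction were named, and of each marker list named the most abundant tested gene. The main fit did not use the replicate numbers to pair the libraries, as the titles do not say that they do.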

Additional observations from a re-analysis of the deposited data

How the results depend on the processing

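Every called chain kept its direction in each alternative fit run on it (scaling, filter, tool, replicate block and leaving out each library). The count of leukocyte integrins called higher was 6, 3 at an adjusted p of 0.01 and 3 to 6 when a library was left out. Without Itga4 it was 5 of 7, and with Itga4 the other integrins had 13 of 16. With library size only, 4 leukocyte integrins, 8 other integrins and 6 laminin chains were higher, against 6, 12 and 7 as reported. Under that scaling 3 laminin chains were lower, against 2. Other integrins called lower went from 0 to 1 with no read filter and to 1 with DESeq2 (Itgb1bp2 each time), and to 0 to 1 when a library was left out. Laminin chains called lower went from 2 to 1 at an adjusted p of 0.01 and to 1 in glmTreat against 2-fold, and to 1 to 2 when a library was left out. Over all tested genes, 4222 were higher as reported, 2527 with library size only, 2368 at an adjusted p of 0.01, 2621 in glmTreat and 2776 to 4317 when a library was left out. The count of lower genes was 3221, then 5300, 1889, 1428 and 2337 to 3786. Of called genes 43% were higher when scaling left out the 20 most abundant genes.

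Chains that had not passed changed sign in some fits. Itgad stood at -0.45 with library size only, -0.15 when the 20 most abundant genes were left out of it, -0.098 in limma-voom, -0.18 with a replicate block, -0.16 without MYC-On replicate 1 and -0.81 without MYC-Off Day 4 replicate 1, with a range of -0.81 to 0.51 over the libraries left out. Itgb7 stood at -0.078 with a replicate block and -1.12 without MYC-Off Day 4 replicate 1, with a range of -1.12 to 1.37. Lamb3 stood at 0.14 in limma-voom, 0.11 with a replicate block, 0.58 without MYC-On replicate 3 and 0.02 without MYC-Off Day 4 replicate 2, with a range of -0.44 to 0.58. The cause was not tested.

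Replicate numbers are shared by the titles, which do not say whether they pair the libraries. The deviations of libraries with the same number correlated at -0.26, -0.17 and 0.04, and those with unlike numbers at -0.12 to 0.32. With 3 libraries per group, such correlations cannot exclude a pairing. With the replicate block 5 leukocyte integrins, 9 other integrins and 6 laminin chains were higher and 2 laminin chains lower. Depth limits Lamc3, with 15 reads over MYC-On.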
